A study of Mus musculus with 3 samples.

Results

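The genes described here are long non-coding RNA (lncRNA) genes with a clear level in at least 1 of 3 immune cell populations of the mouse gut epithelium. A gene was taken when its Ensembl ID carried a non-coding transcript class in the GENCODE M21 annotation (lincRNA, antisense, sense intronic or processed transcript) and its count, taken per 1000000 gene counts of the library (CPM, before scaling), was 10 or more in at least 1 library. That left 98 genes of 3242 lncRNA genes in the tables, 1801 of which had at least 1 count, and of 37224 Ensembl genes in all. All mice carried the RAG-2 null genotype and therefore lack rearranged antigen receptors. iCD8a cells were sorted as CD45+ CD8α+, group 1 innate lymphoid cells (ILC1) as NKp46+ NK1.1+, and myeloid cells (CD11b+) as CD45+ CD8α- CD11b+. Each population gave 1 library, with the number of mice behind it not given in the sources used here. No difference below therefore has a replicate check, and no p-value was computed.

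LncRNAs are transcripts without a long open reading frame that are spliced and capped like messenger RNA or, for a few abundant nuclear ones, processed in other ways. Some act as scaffolds of nuclear bodies or of chromatin-modifying complexes, some are made mainly so that small nucleolar RNAs (snoRNAs) or microRNAs can be cut from them, and others are transcribed beside or across a protein-coding gene and regulate it in cis. In leukocytes several are known to follow lineage and activation closely.

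By class, 35 of the 98 genes were processed transcripts, 30 were lincRNAs, 30 were antisense and 3 were sense intronic. RefSeq also lists 65 of them as lncRNA and 11 as protein-coding, among them Ifi30, Trerf1, Zswim6 and Cct6a, and 22 found no RefSeq entry by symbol or synonym. Ifi30 encodes the lysosomal thiol reductase GILT, so its place among the non-coding genes comes from the annotation's transcript class. Exons of 31 genes overlapped an exon of a protein-coding gene, 26 on the opposite strand and 5 on the same strand. A further 22 lay inside or across a coding gene without sharing exon bases, and 45 touched none. Since the counting's strand setting is not stated in the sources used here, reads of an antisense gene and of its overlapping partner cannot be told apart. The median length of merged exons was 2.57 kb, against 0.962 kb for the other lncRNA genes in the tables and 4.71 kb for protein-coding genes at 10 CPM or more. The median number of separate exon blocks was 3, as in the other lncRNA genes, against 10 in coding genes.

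The 10 CPM minimum corresponded to between 217 and 305 counts, depending on the library. It was reached in all 3 libraries by 46 genes, in 2 by 18, and in 1 alone by 34, of which 16 reached it in iCD8a, 9 in ILC1 and 9 in CD11b+. Those 34 entered through the library where they were high, so counts of differing genes below describe the list and support nothing further. Just inside the minimum lay Gm12708 (10.1 CPM in iCD8a), 4933421O10Rik (10.4 in ILC1) and 2610035D17Rik (10.5 in iCD8a). Just outside lay Gm9752 (9.96 in ILC1), Gm20939 (9.87 in iCD8a) and Gm20069 (9.83 in iCD8a).

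The iCD8a library held 21678113 reads counted on genes, ILC1 held 22181660 and CD11b+ held 30511296. Rag2 had 0 counts in every library. The summed level of 8 myeloid markers was 393, 522 and 8261 CPM in iCD8a, ILC1 and CD11b+, that of 7 natural killer and ILC1 markers 799, 2636 and 109, and that of 5 CD8 and CD3 genes 5499, 64.4 and 237. Itgam alone gave 362 CPM of the myeloid sum in iCD8a and 187 in ILC1. The median log2 ratio (iCD8a over ILC1) of the 8 myeloid markers was -2.88, with 6 below 0 and 2 above. Markers of intestinal epithelium, a cell type outside all 3 gates, summed to 960, 581 and 2937 CPM over 32 genes, with none at 0 counts. Of these, Epcam, Cdh1 and Cdh17 stood at 154, 359 and 193 CPM in iCD8a and at 31.3, 289 and 19.1 in ILC1. The median log2 ratio (iCD8a over ILC1) of the 32 epithelial markers was 0.06, with 20 above 0 and 12 below. The mitochondrial genome's own genes made up 1.60%, 2.09% and 9.53% of gene counts. The marker levels above and the levels from here on are CPM scaled by TMM (trimmed mean of M-values) factors. Values are given in the order iCD8a, ILC1, CD11b+.

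Of all gene counts, the 98 genes took 0.665% in iCD8a, 0.670% in ILC1 and 0.527% in CD11b+. All 3242 lncRNA genes together took 0.772%, 0.775% and 0.610%. The exact binomial 95% intervals, which cover counting error only, ran from 0.662% to 0.669%, from 0.667% to 0.674% and from 0.525% to 0.530%. Without the 11 genes that RefSeq calls protein-coding, the shares were 0.610%, 0.624% and 0.405%. Ifi30 by itself held 15.01% of the list's counts in CD11b+. In bulk libraries such as these, fewer cells of a type and less RNA per cell cannot be told apart. Malat1, Neat1 and Gm12840 together made up 40.3%, 40.9% and 35.9% of the list's counts, and the 10 leading genes 70.7%, 65.1% and 68.5%.

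Per kilobase of exon, which allows levels to be compared between genes, the leading RNA differed by library. In iCD8a it was AW112010 at 798 CPM per kb, ahead of Gm12840 at 383 and Malat1 at 149. In ILC1 Gm12840 led at 1372 CPM per kb, followed by AW112010 at 518.5 and 2410006H16Rik at 228. In CD11b+ Ifi30 stood at 872.5 CPM per kb, Gm12840 at 633 and Malat1 at 156.5. AW112010 is an interferon-inducible lncRNA locus of lymphocytes and macrophages from which a short open reading frame is also translated. Gm12840 (ENSMUSG00000086320) has no known function and overlaps no coding gene. Its level was 240, 860 and 397 CPM, which is 3.58-fold higher in ILC1 than in iCD8a (95% counting interval 3.48 to 3.69).

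**Figure D1:**
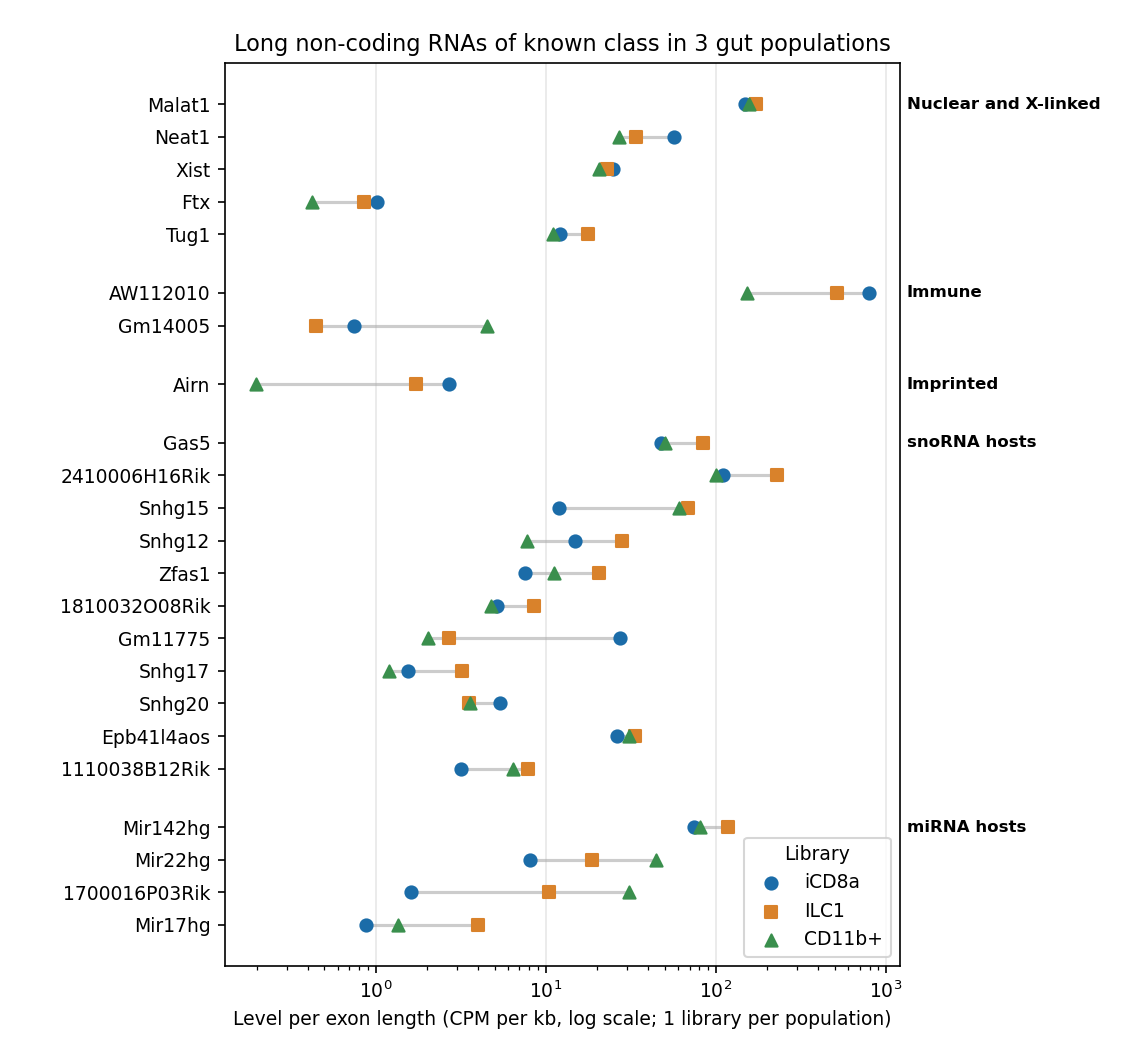
Level of 23 lncRNA genes of known class, in TMM-scaled CPM per kb of exon on a log axis, with 1 point per library and a grey line from the lowest to the highest library. Malat1 lies at nearly the same level in all 3 libraries, AW112010 is lowest in CD11b+, and most snoRNA hosts have their highest point in ILC1.

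Malat1 and Neat1 are neighbouring nuclear RNAs whose full-length transcripts end without a poly(A) tail. Counts here are per gene and do not separate transcripts of different length. Malat1 gathers in nuclear speckles and full-length Neat1 builds paraspeckles. The end of each full-length transcript is held in a triple helix in which an A-rich stretch pairs with a pair of U-rich stretches. This end is cut by RNase P. These stretches are shown because no other gene of the list carries the 3 elements together. From the GENCODE M21 transcripts (GRCm38), written as DNA 5′ to 3′, bases 20652 to 20770 of the 20771 in Neat1-201 and bases 6572 to 6690 of the 6983 in Malat1-201 read as follows, with U-rich motif 1, U-rich motif 2 and the core of the A-rich tract in capitals.
Neat1: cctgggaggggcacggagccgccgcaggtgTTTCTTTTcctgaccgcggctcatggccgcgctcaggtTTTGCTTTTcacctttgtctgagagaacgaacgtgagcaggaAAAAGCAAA
Malat1: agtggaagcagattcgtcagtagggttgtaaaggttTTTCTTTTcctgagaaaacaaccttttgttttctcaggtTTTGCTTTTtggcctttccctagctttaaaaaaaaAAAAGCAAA
The letters AAAAGCAAA with TTTCTTTT and TTTGCTTTT in the 110 bases before them were found in these 2 of the 98 genes, in 2 of 10120 annotated lncRNA genes (0.0198%) and in 0 of 21951 coding genes. Only the transcript's own strand was searched. The letters were chosen with these genes in mind, so the count is a description of them.

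Of a list of 21 nuclear and dosage-compensation lncRNAs, 14 were found in the tables by symbol or RefSeq synonym and 6 reached 10 CPM. None of the 6 was apart in any pair of libraries by the 4-fold rule given below. The background over all genes at 10 CPM or more was 3.08% to 11.6% per pair and direction. With 6 genes, this cannot be read as a trait of nuclear lncRNAs. Malat1 (ENSMUSG00000092341) stood at 1041, 1200 and 1093 CPM and was the steadiest of them. Neat1 (ENSMUSG00000092274) stood at 1180, 705 and 557 CPM, highest in iCD8a, where it was 1.67-fold above ILC1 (1.64 to 1.71) and 2.12-fold above CD11b+ (2.08 to 2.16). Xist, which coats the inactive X chromosome of female cells, was counted in every library, at 447, 408 and 370 CPM. Ftx, a neighbour that promotes Xist, stood at 10.3, 8.68 and 4.29 CPM. Tug1, a broadly expressed RNA first found in retina, stood at 118, 171.5 and 107 CPM. The gene 1700020I14Rik, listed by RefSeq as Oip5os1 and known as Cyrano, which triggers decay of miR-7, stood at 301, 201 and 89.9 CPM and was 3.35-fold higher in iCD8a than in CD11b+ (3.20 to 3.51).

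LncRNAs that host snoRNAs are spliced and then mostly degraded, while the snoRNAs cut from their introns guide the chemical modification of ribosomal RNA. Of 21 listed hosts, 11 were in the tables and 8 reached 10 CPM: Gas5, Snhg12, Snhg15, Snhg16 (1810032O08Rik in the annotation), Snhg17, Snhg20, Zfas1 and Epb41l4aos. The summed level of those found was 307.9, 610.9 and 369.95 CPM. In 7 of the 8 the ILC1 value was above the iCD8a value, with a median log2 ratio (iCD8a over ILC1) of -0.87 among the 8, against 0.04 over all 9774 genes at 10 CPM or more. By the 4-fold rule given below, 1 of the 8 was lower in iCD8a than in ILC1 (background over the same 9774 genes 4.38%) and none was higher (background 3.08%). Over all 13 genes of the 98 that hold an annotated snoRNA gene, 11 were lower in iCD8a than in ILC1 in value, with a median of -0.81, and by the rule 1 was lower (Snhg15) and 1 higher (Gm11775). For 10 of them the ILC1 value was above that of CD11b+. Their median log2 ratio (ILC1 over CD11b+) was 0.42, against 0.60 over the 98 genes and 0.06 over all 9774. Snhg20 and Gm11775 were the 2 whose iCD8a value was above that of ILC1.

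Snhg15 (ENSMUSG00000085156) was the listed host that passed the rule. It stood at 16.2, 93.3 and 82.1 CPM, low in iCD8a alone, and was 5.74-fold higher in ILC1 (5.15 to 6.42) and 5.05-fold higher in CD11b+ (4.53 to 5.64). Gas5, a host of box C/D snoRNAs that accumulates when growth or translation is blocked, stood at 180, 316 and 189 CPM. Snhg12 stood at 35.7, 67.7 and 18.7 CPM and was 3.62-fold higher in ILC1 than in CD11b+ (3.28 to 4.01). Zfas1, antisense to the start of Znfx1, stood at 22.2, 60.0 and 32.9 CPM. These 3 hosts had their highest value in ILC1, as did Snhg16 (14.4, 23.5 and 13.3 CPM), Snhg17 (10.9, 22.5 and 8.44 CPM) and 2410006H16Rik, which holds Snord49a, Snord49b and Snord65 (50.7, 105 and 46.2 CPM). Snhg20 stood at 15.1, 9.86 and 10.03 CPM and was the only listed host with its highest value in iCD8a.

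The promoter of Snhg15 is shown because Snhg15 was the only one of the listed snoRNA hosts past the rule. The window runs from 250 bases before to 50 bases after the RefSeq start (GRCm38.p6, chr11:6528711-6529010, minus strand), with a cAMP response element, TGACGTCA, in capitals.
Snhg15: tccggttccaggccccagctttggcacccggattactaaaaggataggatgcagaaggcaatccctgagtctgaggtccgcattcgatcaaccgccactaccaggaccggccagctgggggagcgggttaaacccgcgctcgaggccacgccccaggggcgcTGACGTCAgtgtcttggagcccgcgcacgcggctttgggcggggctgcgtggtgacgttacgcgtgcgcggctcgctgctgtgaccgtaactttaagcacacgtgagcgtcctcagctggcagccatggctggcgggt
On either strand, TGACGTCA was found in 2 of the 66 listed genes with a promoter window (3.03%), Gas5 and Snhg15, and in 2.03% of all 27025 genes with windows of that length. A match of letters is a description and not a bound site.

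Of the 8 listed genes that hold an annotated microRNA gene, 4 were followed through the mature microRNAs that RefSeq (GRCm38.p6) places inside them. The others were Zswim6, Gm15987, Ftx and Snhg20, of which Ftx and Snhg20 had their highest value in iCD8a. Only the long host transcript was counted, and levels of the microRNAs themselves were not measured. The sequences of the main products are given 5′ to 3′ with the seed, bases 2 to 8, in capitals.
miR-142a-3p, from Mir142hg: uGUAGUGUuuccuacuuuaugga
miR-142a-5p, from Mir142hg: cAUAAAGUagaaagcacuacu
miR-22-3p, from Mir22hg: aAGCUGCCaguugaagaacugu
miR-132-3p, from 1700016P03Rik: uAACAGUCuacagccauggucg
miR-212-3p, from 1700016P03Rik: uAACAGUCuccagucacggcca
miR-17-5p, from Mir17hg: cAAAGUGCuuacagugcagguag
miR-20a-5p, from Mir17hg: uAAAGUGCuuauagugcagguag
miR-18a-5p, from Mir17hg: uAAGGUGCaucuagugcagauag
miR-19a-3p, from Mir17hg: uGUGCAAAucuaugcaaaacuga
miR-19b-3p, from Mir17hg: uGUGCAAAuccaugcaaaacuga
miR-92a-3p, from Mir17hg: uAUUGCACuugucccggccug
The seed AACAGUC was shared by miR-132-3p and miR-212-3p, AAAGUGC by miR-17-5p and miR-20a-5p, and GUGCAAA by miR-19a-3p and miR-19b-3p.

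The hosts of the shared-seed families were lowest in iCD8a. The gene 1700016P03Rik (ENSMUSG00000085609), host of miR-132 and miR-212, which curb inflammatory signalling in macrophages, stood at 1.40, 8.997 and 26.4 CPM. It was 18.9-fold higher in CD11b+ than in iCD8a (13.4 to 27.7) and 6.44-fold higher in ILC1 than in iCD8a (4.44 to 9.62). Its exons overlap Ovca2 on the other strand, which stood at 8.29, 8.72 and 26.0 CPM. Mir17hg (ENSMUSG00000089726), host of the miR-17 to miR-92 cluster, known for promoting lymphocyte growth and survival, stood at 3.09, 14.1 and 4.79 CPM. It was highest in ILC1, 4.57-fold above iCD8a (3.54 to 5.99) and 2.95-fold above CD11b+ (2.41 to 3.64). Mir22hg (ENSMUSG00000085148) stood at 15.5, 35.9 and 85.6 CPM, in a clear order with CD11b+ highest, 5.53-fold above iCD8a (4.95 to 6.19). Mir142hg, whose microRNA is made throughout the blood lineages, stood at 19.9, 31.7 and 21.6 CPM and was not apart by the rule in any pair.

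To compare libraries gene by gene, the study's design sets iCD8a cells beside group 1 ILC and beside myeloid cells of the same tissue. A gene was called apart in a pair when it met 3 conditions: a fold of 4 or more, a 95% exact counting interval whose near bound was 2 or more, and 5 CPM or more in the library with the higher level. By this rule 37 of the 98 genes were apart in at least 1 pair and 61 in none. No matching count over all genes is given for these values, so they describe the list only. In iCD8a against ILC1, 4 were higher (4.08% of the list, background over all genes at 10 CPM or more 3.08%) and 11 were lower (11.2%, background 4.38%). In iCD8a against CD11b+, 17 were higher (17.3%, background 5.84%) and 15 lower (15.3%, background 11.6%). In ILC1 against CD11b+, 11 were higher (11.2%, background 5.67%) and 8 lower (8.16%, background 11.1%). The median size of the log2 ratio was 0.70, 1.00 and 0.91 in these 3 pairs, against 0.43, 0.67 and 0.70 over all genes at 10 CPM or more. The medians of the signed log2 ratios were -0.17, 0.17 and 0.60, against 0.04, 0.10 and 0.06. ILC1 held the highest value for 41 of the 98 genes, iCD8a for 35 and CD11b+ for 22, and the lowest value was in CD11b+ for 46, in iCD8a for 34 and in ILC1 for 18. These orders were not set against those of all genes, so they cannot be read as a trait of lncRNA genes. The 3 pairs share libraries, so their counts are not independent.

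**Figure D2:**
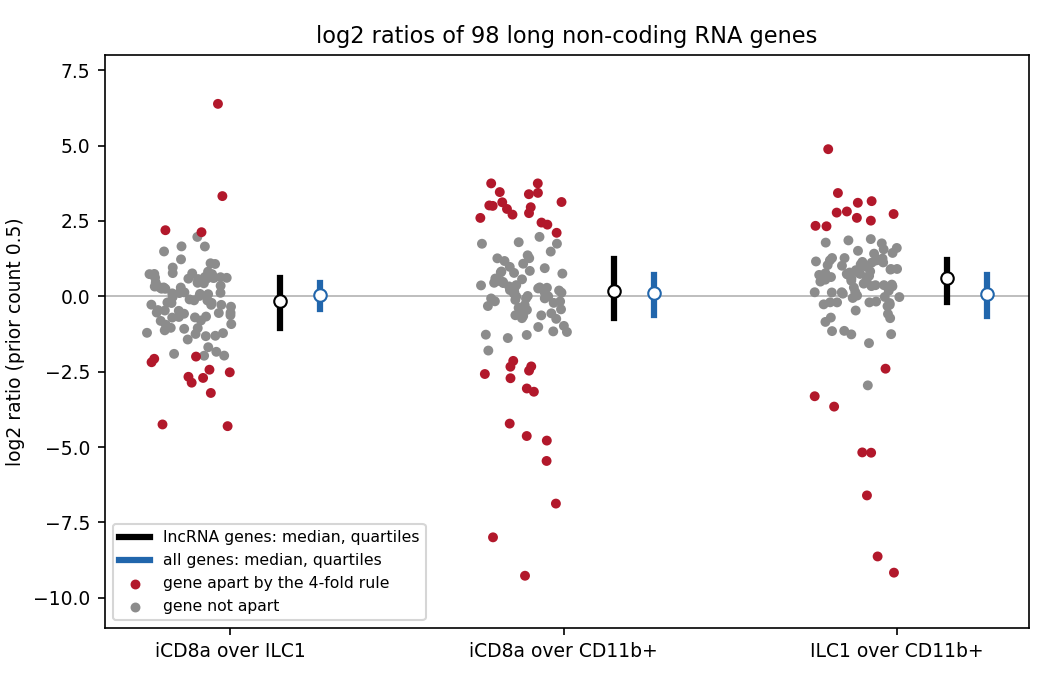
The log2 ratio of each of the 98 lncRNA genes in the 3 pairs of libraries (1 point per gene, red when apart by the 4-fold rule, spread sideways only for legibility), with the median and quartiles of these genes in black and of all 9774 genes at 10 CPM or more in blue. The quartiles of the lncRNA genes lie further apart than those of all genes in both pairs with iCD8a, and the lowest points are genes at 0 to 2 counts in the lower library.

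Against both other populations at the same time, 4 genes were higher in iCD8a (4.08%, background 1.40%), 1 in ILC1 (1.02%, background 1.5%) and 7 in CD11b+ (7.14%, background 8.74%). In the other direction, 7 had iCD8a as the low library against both others (background 2.38%), 10 had CD11b+ (background 2.81%) and none had ILC1 (background 1.48%).

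The 4 genes higher in iCD8a than in both others were 9530036M11Rik, Gm11775, 4930520O04Rik and Gm15326. The gene 9530036M11Rik (ENSMUSG00000087670) lies antisense inside Chn2, which encodes the Rac-inactivating protein β2-chimaerin, and stood at 28.5, 0.318 and 2.62 CPM. It was 89.5-fold higher than in ILC1 (43.2 to 224), where it had 7 counts, and 10.9-fold higher than in CD11b+ (8.53 to 13.997). Its host gene Chn2 was also highest in iCD8a, at 436, 131 and 76.0 CPM. Per kb the RNA reached 18.998%, 0.707% and 10.1% of the Chn2 level, so the 2 levels were not in a fixed ratio.

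Gm11775 (ENSMUSG00000086835) overlaps Cd7, a receptor of T and natural killer cells, on the opposite strand and stood at 21.2, 2.09 and 1.56 CPM. It was 10.1-fold higher in iCD8a than in ILC1 (7.48 to 14.01) and 13.6-fold higher than in CD11b+ (9.96 to 18.9). Cd7 itself stood at 4223, 435 and 336 CPM, and Gm11775 per kb was 0.734%, 0.704% and 0.681% of it, a nearly constant share. The gene 4930520O04Rik, which spans part of Crtap, stood at 34.2, 7.82 and 4.22 CPM, and Crtap at 15.1, 8.13 and 13.7. Gm15326 is a lincRNA whose nearest coding gene is Map3k1, an upstream kinase of the JNK pathway. It stood at 11.9, 2.59 and 1.81 CPM, 4.61-fold higher in iCD8a than in ILC1 (3.46 to 6.24), while Map3k1 was level across the libraries at 257, 280 and 257 CPM.

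The 7 genes lower in iCD8a than in both others were Gm12505, Gm20400, Snhg15, Kdm6bos, 1700016P03Rik, Gm16091 and 1700058P15Rik. Without a scaling factor 2 of them fell below the 4-fold line, Gm12505 against CD11b+ (3.75-fold, from 4.42) and 1700058P15Rik against ILC1 (3.65-fold, from 4.01). Kdm6bos (ENSMUSG00000085178) is antisense to Kdm6b, the H3K27 demethylase JMJD3 that is induced by activation, and stood at 1.99, 39.8 and 18.01 CPM. That is 19.99-fold higher in ILC1 than in iCD8a (14.9 to 27.4) and 9.05-fold higher in CD11b+ than in iCD8a (6.71 to 12.5). Kdm6b ran in the same order at 143, 1952 and 936 CPM. Gm16091, inside or across the actin-binding tropomyosin gene Tpm4, stood at 0.973, 18.9 and 8.26 CPM, beside 25.9, 531 and 554 for Tpm4.

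In ILC1, Gm12505 and Gm20400 had the highest CPM of these 7. Gm12505 overlaps no coding gene and stood at 17.4, 126.5 and 76.6 CPM, 7.29-fold higher in ILC1 than in iCD8a (6.57 to 8.10). Its nearest coding gene Rad23b, a DNA repair and proteasome shuttle factor, was not apart in any pair, at 207, 156 and 179 CPM. Gm20400 lies across Slco1a6, an organic anion transporter gene at 0.931, 1.05 and 0.213 CPM, and stood at 10.5, 96.6 and 68.8 CPM. It was 9.24-fold higher in ILC1 than in iCD8a (8.10 to 10.6). The gene 1700058P15Rik, within Vasp, an actin regulator, stood at 3.55, 14.3 and 17.9 CPM, and Vasp at 640, 617 and 1302.

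The other 4 genes lower in iCD8a than in ILC1 were 6530402F18Rik, Gm11714, Mir17hg and 4933431E20Rik, the last at 4.22-fold, or 3.84-fold without a scaling factor. The gene 6530402F18Rik, on the same strand as Ntng2 with shared exon bases, stood at 12.8, 83.6 and 44.5 CPM beside 8.84, 47.2 and 50.6 for Ntng2. Gm11714 (ENSMUSG00000087113) was the 1 gene higher in ILC1 than in both others, at 6.26, 33.9 and 1.13 CPM. It was 5.42-fold above iCD8a (4.54 to 6.51) and 29.9-fold above CD11b+ (21.01 to 44.1). It lies inside Pitpnc1, a phosphatidylinositol transfer protein gene that was nearly equal in iCD8a and ILC1, at 337, 314 and 55.0 CPM. Per kb Gm11714 stood at 14.04%, 81.7% and 15.6% of Pitpnc1.

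**Figure D3:**
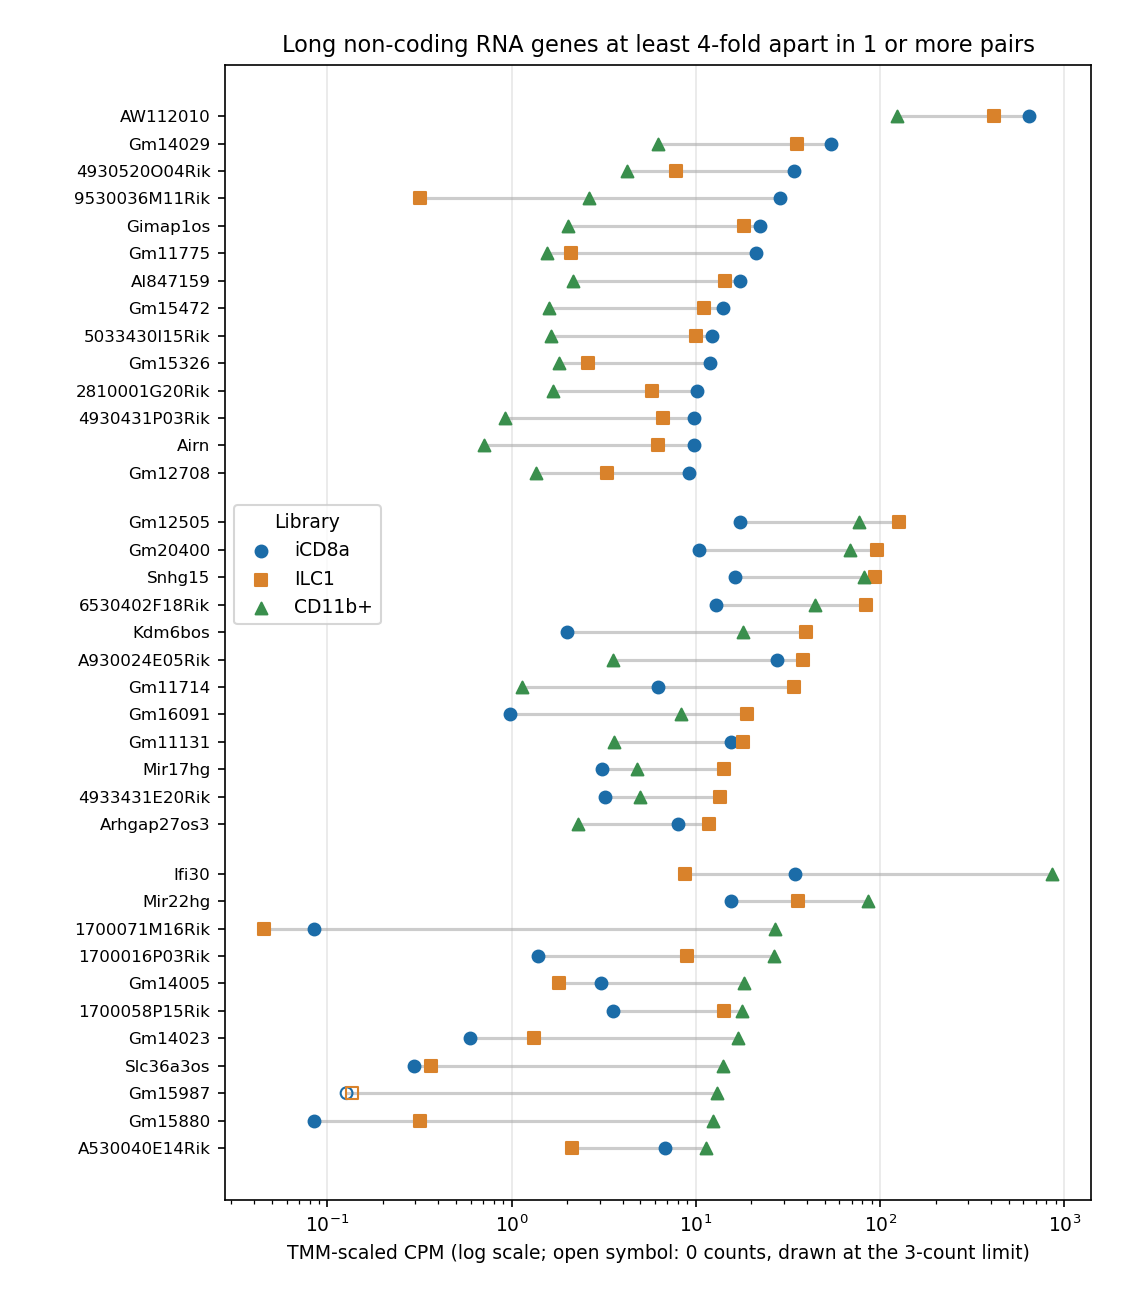
TMM-scaled CPM on a log axis of the 37 lncRNA genes apart by the 4-fold rule in at least 1 pair, grouped by the library with the highest level (iCD8a, ILC1, CD11b+ from top to bottom), 1 point per library. Open symbols mark 0 counts and are drawn at the level of 3 counts, and grey lines join the lowest and highest library. Most of the top block is low in CD11b+, most of the middle block is low in iCD8a, and several genes of the bottom block lie below 1 CPM in the iCD8a and ILC1 libraries.

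The 7 genes higher in CD11b+ than in both others were Ifi30, 1700071M16Rik, Gm14005, Gm14023, Slc36a3os, Gm15987 and Gm15880. The myeloid and the epithelial markers were both higher in this library. Of the 32 epithelial markers 29 were lower in iCD8a than in CD11b+ by the rule, with a median log2 ratio of -3.13, and 30 were lower in ILC1, with a median of -3.17. Of the 8 myeloid markers 7 were lower in iCD8a and all 8 in ILC1. The part of either cell type in the levels of these 7 genes was not tested. Ifi30 (ENSMUSG00000031838), whose product unfolds antigens for presentation on MHC class II, stood at 34.4, 8.77 and 856 CPM. It was 24.8-fold higher in CD11b+ than in iCD8a (23.2 to 26.7) and 97.6-fold higher than in ILC1 (84.7 to 113).

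Several of these RNAs were close to undetected outside CD11b+. Gm15987 (ENSMUSG00000085786), which lies across Clec2g and holds the Mir7649 gene, had 0, 0 and 368 counts, or 13.04 CPM in CD11b+. Set against 3 counts per library for the 0 values, it was at least 102.75-fold higher than in iCD8a and at least 95.689-fold higher than in ILC1, and the near bounds of the counting intervals were 83.1-fold and 77.4-fold. The gene 1700071M16Rik had 2, 1 and 761 counts, or 26.98 CPM in CD11b+, a fold over iCD8a of 319 with a counting interval from 87.9 to 2637. It overlaps Pla2g7, the lipoprotein-associated phospholipase of macrophages, on the opposite strand, which stood at 0.762, 3.59 and 498 CPM. Gm15880, inside Crtc3, had 2, 7 and 350 counts, whereas Crtc3, a CREB coactivator gene, stood at 90.6, 86.1 and 112 CPM. Slc36a3os, across an amino acid transporter gene, stood at 0.296, 0.364 and 13.97 CPM. Gm14023 overlaps Il1a, the gene of interleukin-1α, on the opposite strand and stood at 0.592, 1.32 and 16.9 CPM, beside 0.592, 11.996 and 239 for Il1a.

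Gm14005 (ENSMUSG00000074813) is Morrbid in RefSeq, a lncRNA of short-lived myeloid cells known to restrain transcription of the neighbouring pro-apoptotic gene Bcl2l11, which encodes Bim. It stood at 3.05, 1.82 and 18.3 CPM. That is 6.003-fold higher in CD11b+ than in iCD8a (4.68 to 7.79) and 10.1-fold higher than in ILC1 (7.29 to 14.3). Bcl2l11 had the reverse order, at 490, 1203 and 223 CPM, and was apart by the rule only between ILC1 and CD11b+. A link between the 2 levels was not tested. The promoter of Gm14005 is shown as the 1 of the 7 windows of CD11b+-high genes that held GAGGAAGT, a PU.1-type ETS motif. The window covers 250 bases before to 50 after the RefSeq start (GRCm38.p6, chr2:128429302-128429601, minus strand), with that motif and an AP-1 motif, TGANTCA, in capitals.
Gm14005: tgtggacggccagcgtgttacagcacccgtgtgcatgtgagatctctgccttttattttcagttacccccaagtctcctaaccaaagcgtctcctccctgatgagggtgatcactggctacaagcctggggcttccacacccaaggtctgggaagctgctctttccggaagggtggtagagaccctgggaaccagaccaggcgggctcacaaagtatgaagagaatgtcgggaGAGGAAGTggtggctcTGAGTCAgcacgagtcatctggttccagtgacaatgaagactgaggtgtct
On either strand, GAGGAAGT was found in 6 of the 66 listed genes with a window (9.09%) and in 3.69% of all 27025 genes with a window. TGANTCA was found in 3 of the 66 (4.55%) and in 8.97% of the 27025. The motifs do not overlap each other, and the match shows letters only.

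The 10 genes lower in CD11b+ than in iCD8a and ILC1 were Gm14029, A930024E05Rik, Gm11714, Gimap1os, AI847159, Gm11131, Gm15472, 5033430I15Rik, 4930431P03Rik and Airn. Gimap1os (ENSMUSG00000044867) overlaps Gimap1, a GTPase gene needed for lymphocyte survival, and stood at 22.4, 18.2 and 2.02 CPM. It was 11.1-fold higher in iCD8a (8.42 to 14.8) and 8.996-fold higher in ILC1 (6.80 to 12.1) than in CD11b+. Gimap1 stood at 193, 155.5 and 21.9 CPM, and Gimap1os per kb was 11.5%, 11.6% and 9.16% of it. Gm15472, a sense intronic RNA of Ptpn22, which encodes a phosphatase that dampens lymphocyte receptor signalling, stood at 14.1, 11.0 and 1.60 CPM beside 851, 912 and 128 for Ptpn22.

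Airn (ENSMUSG00000078247), the paternally expressed RNA that silences Igf2r in cis, was the only listed imprinted lncRNA to reach 10 CPM, of 9 listed and 4 in the tables. It stood at 9.73, 6.23 and 0.709 CPM, 13.7-fold higher in iCD8a than in CD11b+ (8.68 to 22.9) and 8.78-fold higher in ILC1 (5.47 to 14.8). Igf2r, expressed from the maternal allele in most tissues, had its higher levels in the same 2 libraries, at 335, 373 and 34.7 CPM. The counts do not separate the parental alleles. A930024E05Rik, antisense to Kdm2b, stood at 27.6, 38.3 and 3.54 CPM, whereas Kdm2b, a histone demethylase gene, was high in ILC1 alone at 57.5, 444 and 53.2 CPM.

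The remaining genes low in CD11b+ lay across or near genes of varied function. Gm11131, antisense to the MHC class Ib gene H2-Q4, stood at 15.5, 17.99 and 3.58 CPM, and reads of H2-Q genes are uncertain because near-identical copies exist. The lincRNA 5033430I15Rik stood at 12.3, 9.997 and 1.63 CPM, and its nearest coding gene Atxn1, which encodes ataxin-1, had the same low library at 53.9, 69.0 and 11.4 CPM. The gene 4930431P03Rik stood at 9.82, 6.59 and 0.922 CPM beside Ptger2, which encodes a prostaglandin E2 receptor, at 9.73, 9.04 and 3.86.

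A cluster of lncRNAs near Slc20a1, a phosphate transporter gene, behaved unequally. Gm14029 stood at 54.1, 35.4 and 6.20 CPM and AI847159 at 17.4, 14.4 and 2.16, both low in CD11b+. Gm14029 was 8.72-fold higher in iCD8a than in CD11b+ (7.44 to 10.3) and AI847159 was 8.06-fold higher (6.15 to 10.7). The third, 9830144P21Rik, lies across Slc20a1 and stood at 20.4, 30.4 and 16.2 CPM, and Slc20a1 at 342, 418 and 253, neither of them apart in any pair.

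Among the remaining genes above CD11b+, AW112010 (ENSMUSG00000075010) stood at 641, 417 and 123 CPM. It was 5.20-fold higher in iCD8a than in CD11b+ (5.01 to 5.40) and 3.38-fold higher in ILC1 (3.25 to 3.52), below the 4-fold line. AW112010 and Gm14005 were the 2 of 11 listed immune lncRNAs to reach 10 CPM, of 6 in the tables. Both 2810001G20Rik (10.2, 5.77 and 1.67 CPM) and Gm12708 (9.23, 3.27 and 1.35 CPM) were higher in iCD8a than in CD11b+ by the rule. Gm12708 has Jun, the AP-1 subunit gene, as its nearest coding gene, which stood at 328, 794 and 544 CPM and so was lowest where Gm12708 was highest. Arhgap27os3 (8.04, 11.7 and 2.30 CPM) was apart only between ILC1 and CD11b+, 5.09-fold (3.86 to 6.79).

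The 61 genes apart in no pair held most of the abundant RNAs. Gm17055 lay just under the 4-fold line at 16.3, 63.9 and 17.1 CPM, 3.91-fold higher in ILC1 than in iCD8a (3.49 to 4.39). Its nearest coding gene Bhlhe40, a transcription factor gene of activated lymphocytes, was also highest in ILC1, at 728, 3144 and 1263 CPM. At the other end, 4933439C10Rik stood at 11.3, 11.5 and 11.3 CPM and Gm17344 at 13.1, 12.996 and 13.2, nearly level across the 3 libraries.

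For 81 of the 98 genes the nearest protein-coding gene reached 5 CPM in some library, overlapping the lncRNA gene in 46 cases and lying apart from it in 35. Across the overlapping genes, Pearson's r between the log2 ratios of the lncRNA and of the coding gene was 0.58 (iCD8a over ILC1), 0.70 (iCD8a over CD11b+) and 0.67 (ILC1 over CD11b+). Across those without overlap it was 0.23, 0.11 and 0.25. For comparison, 6431 coding genes and their nearest coding gene gave 0.22, 0.30 and 0.30. These are correlations across genes of the same libraries, which are not independent replicates, and the difference between the classes was not tested. Reads that fell on several overlapping genes were counted on none of them. Where strand is not used, reads from a coding gene can still be counted on the lncRNA gene outside shared exon bases. The effect of such reads, and of reads lost over shared bases, was not tested either. In iCD8a against CD11b+, 7 of the 17 higher lncRNA genes had a coding neighbour higher by the rule and 1 had a neighbour that was lower, while over all 81 genes 8 neighbours were higher and 9 lower. Of the 12 lower genes with such a neighbour, 4 had a neighbour that was lower and none a neighbour that was higher. In ILC1 against CD11b+ the neighbour was higher for 7 of 11 higher genes. Of the 6 lower genes 3 had a lower neighbour and 1 a higher neighbour, and over all 81 genes 9 neighbours were higher and 7 lower. In iCD8a against ILC1 it was higher for 1 of 4 higher genes and lower for 3 of 9 lower genes, and over all 81 genes 3 neighbours were higher and 6 lower.

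**Figure D4:**
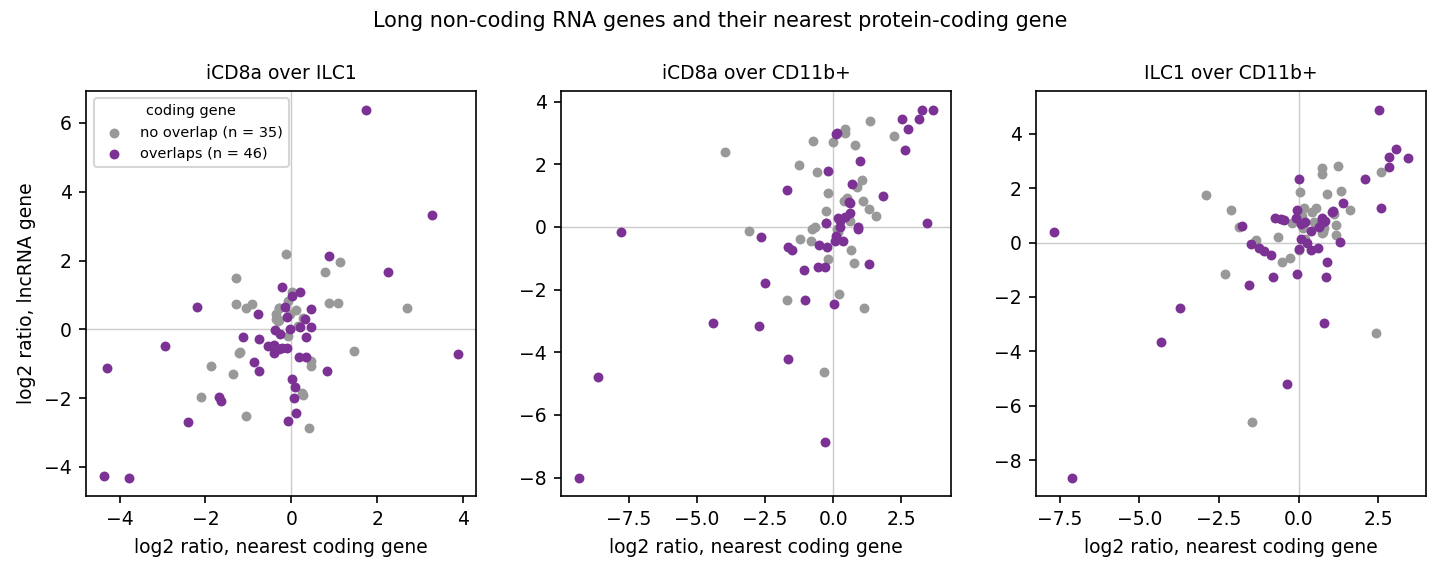
The log2 ratio of each lncRNA gene (vertical) against that of its nearest protein-coding gene (horizontal) for the 81 genes whose neighbour reached 5 CPM, 1 panel per pair of libraries with its own axis ranges. Genes that overlap the coding gene are purple (46) and the others grey (35), and the purple points follow the diagonal more closely than the grey ones.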

How the data were processed

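RNA-seq libraries of 3 sorted populations, 1 each, were grouped by the cell type label. Values are the authors' deposited counts of reads per Ensembl gene, not normalized. Per the series' design text, reads were aligned with TopHat and counted with HTSeq, and CASAVA 1.9 and TopHat2 are named in the submitters' processing notes. Not given in the sources used here: genome build, annotation, strand setting and counter version. The 5 closing rows of each file name no gene and stayed out. Non-unique alignments made up 26.9%, 34.5% and 30.5% of all rows in iCD8a, ILC1 and CD11b+, reads in no gene to 9.31%, 11.0% and 8.56%, and ambiguous reads to 1.08%, 0.889% and 0.922%. Reads that align to several places or to several overlapping genes were thus not counted.

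Classes, symbols, exon lengths and neighbours came from GENCODE M21 by Ensembl ID, which matched 35449 of 37224 IDs. RefSeq tables (GRCm38.p6) gave promoters, microRNAs and synonyms, through which 3 listed genes were matched. Counts were scaled by TMM factors (edgeR 4.0.16 in R 4.3.3) of 1.09, 0.992 and 0.925. Folds are ratios of scaled counts with 95% Clopper-Pearson intervals on the conditional binomial (Python 3.11.15, scipy 1.17.1, pandas 2.3.3, numpy 2.4.6, matplotlib 3.10.9). Log2 ratios used a prior count of 0.5. Without molecular identifiers reads are not independent, so intervals and the limit of 3 counts (0.127, 0.136 and 0.106 CPM) cover counting error only. With 1 library per group no test has residual degrees of freedom. edgeR and DESeq2 1.42.0 therefore gave scaling factors alone. The genes, lists and motifs were chosen with earlier results of these data known. Genes were named from set groups: for each pair and direction the 8 whose near bound was largest, and those higher than in both other libraries. Further groups were the 10 with the highest level per kb in each library, those beside the 10 CPM minimum and members of the lists. Not every gene of these groups is named above, for example A530040E14Rik, AI662270 and Gm17024. Genes outside these groups, such as those lower than in both others, were named after their values were seen.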

Additional observations from a re-analysis of the deposited data

Results flagged for a closer look

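Some counted RNA could not be classed. Of the Ensembl IDs without an entry in the annotation used, 58 reached 10 CPM in at least 1 library, and all such IDs together took 0.338% of gene counts in iCD8a, 0.484% in ILC1 and 0.430% in CD11b+. They stand out because their level is far above the limit that a count of 0 allows, and because these shares are of the same order as those of the 98 lncRNA genes. Whether any of them is a lncRNA was not determined, and none enters the counts above. The most abundant, ENSMUSG00000089672, stood at 108, 1204 and 434 CPM before scaling.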

How the results depend on the processing

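Scaling changed little: DESeq2 and upper-quartile factors and thinning to equal depth kept all 15, 32 and 19 calls of the 3 pairs (iCD8a against ILC1, iCD8a against CD11b+, ILC1 against CD11b+). With no scaling factor, which shifts the median of all genes by 0.14, 0.24 and 0.10 log2, 13, 31 and 19 were kept, with 4933431E20Rik, 1700058P15Rik and Gm12505 falling just below the 4-fold line. Without mitochondrially encoded genes 14, 32 and 19 were kept, with 1700058P15Rik at 3.99-fold against ILC1. Some counts also rose. Upper-quartile factors gave 13 lower in iCD8a than ILC1 (from 11), and thinning gave 18 higher in iCD8a than CD11b+ (from 17). With no scaling factor 5 were higher in iCD8a than ILC1 (from 4) and 19 higher than CD11b+ (from 17). In ILC1 12 were then higher than CD11b+ (from 11). Without mitochondrially encoded genes iCD8a against CD11b+ gave 18 higher and 16 lower, and ILC1 against CD11b+ 9 lower. No call turned direction under these settings, and of 280 recomputed folds 273 stayed within their counting interval and 7 moved. Thresholds mattered more. A minimum of 5 CPM gave 162 genes and one of 20 CPM gave 59. At 5 CPM the counts rose from 4 to 7 (higher in iCD8a than ILC1), 17 to 29 and 15 to 24 (iCD8a against CD11b+, higher and lower), 11 to 25 and 8 to 17 (ILC1 against CD11b+), and 7, 4 and 15 for iCD8a, ILC1 and CD11b+ above both others. At 20 CPM they were 7 (lower in iCD8a than ILC1), 8 and 8, 4 and 2, and 2 for CD11b+ above both. With a fold of 2 they were 11 and 24 for iCD8a against ILC1, 27 higher in iCD8a than CD11b+, 32 and 13 for ILC1 against CD11b+, and 7, 12 and 11 above both. With a fold of 8 they were 2 and 3, 9 and 9, 4 higher in ILC1 than CD11b+, and 2 in iCD8a and 0 in ILC1 above both. Without the 31 genes whose exons overlap a coding exon, 7 were lower in iCD8a than ILC1 and 5 lower in ILC1 than CD11b+. No share over all genes is given at these other thresholds, so these counts describe the list only. The share of gene counts became 0.397%, 0.396% and 0.338% without the 3 most counted genes, 0.678%, 0.686% and 0.585% without mitochondrially encoded genes, and 0.592%, 0.580% and 0.456% without exon overlap. Leaving out the genes that RefSeq calls protein-coding, an alternative chosen after seeing the data, gave 0.610%, 0.624% and 0.405%. No paired analysis was possible because each population has 1 library, and for the same reason no replicate could be left out.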
